A study of Mus musculus with 12 samples.

Results

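The genes described here are the interferon pathway genes and interferon-stimulated genes of sorted mouse heart cells, 70 of the 12528 genes in the deposited tables. They were chosen by a rule on symbols, with earlier results of these data known. Among them are the interferon receptors (Ifnar and Ifngr), the kinases Jak1 and Tyk2, and the STAT and IRF transcription factors. The others are the numbered Ifi, Isg and Gbp genes, the Ifit, Oas, Mx and Irgm families, and a few further induced genes. RNA was sequenced from Bmi1-CPC, cardiac cells that carry YFP after tamoxifen because Cre is driven from the Bmi1 locus in adult Bmi1CreER/+;Rosa26YFP/+ mice of the C57BL/6 strain. All mice received 3 daily doses of tamoxifen (9 mg for each 40 g that the mouse weighed). Bmi1-CPC after acute myocardial infarction (AMI) came from hearts infarcted 5 days after tamoxifen and collected 5 days after ligation of a coronary artery. For these, 2 to 3 mice were pooled per library. Homeostatic Bmi1-CPC came from hearts without surgery, collected 5 days after tamoxifen, with 6 mice per pool. Sca-1-YFP- cells were SCA-1+, YFP-negative and CD45-negative cells from homeostatic hearts, likewise in pools of 6 mice. Each group had 4 libraries. A YFP+ cell is one in which the Bmi1 locus was active at the time of tamoxifen, or a descendant of it, and no cell type is fixed by the label. The sample titles carry SCApYFPp for Bmi1-CPC and SCApYFPn for Sca-1-YFP- cells, which reads as SCA-1-positive for both. The study describes the Bmi1-CPC sort by YFP alone.

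Interferons are secreted signals of antiviral and antibacterial defence. Type I interferons bind a receptor made of the Ifnar1 and Ifnar2 chains, and interferon gamma binds Ifngr1 and Ifngr2; both receptors act through Janus kinases on STAT factors. A complex that holds Stat2 and Irf9 binds the interferon-stimulated response element (ISRE), and STAT pairs bind the gamma-activated site (GAS), which switches on effector genes that bind foreign RNA, attack the vacuoles of intracellular microbes or damp the pathway itself. Many of these genes are also transcribed at a low level without infection, in endothelial cells, fibroblasts and resident leukocytes of the heart among others.

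Total reads ranged from 6784686 to 8078721 in Bmi1-CPC AMI libraries, from 4063619 to 4993906 in homeostatic Bmi1-CPC and from 3397621 to 8031666 in the Sca-1-YFP- cells. The share of mt-Rnr2, a ribosomal RNA of mitochondria, was 20.3 to 33.4% of reads after AMI, 25.0 to 32.8% in homeostatic Bmi1-CPC and 10.4 to 23.7% in the Sca-1-YFP- cells. All 70 genes had reads in each library, except Ifi202b with none in AMI library 1. The populations differed widely outside this pathway. Among 9 leukocyte markers, whose product CD45 (Ptprc) was gated out of Sca-1-YFP- cells only, all 9 were higher after AMI than in homeostatic Bmi1-CPC, and all 9 were higher in homeostatic Bmi1-CPC than in the Sca-1-YFP- cells. Their summed level was 379 to 651 after AMI, 111 to 149 in homeostatic Bmi1-CPC and 12.9 to 23.5 in the Sca-1-YFP- cells. Of 12 macrophage markers, 11 were higher after AMI, and 11 of 11 tested were higher in homeostatic Bmi1-CPC than in the Sca-1-YFP- cells (summed level 819 to 1534, 155 to 281 and 7.20 to 9.38), and C1qa, C1qc and Emr1 had no read in any Sca-1-YFP- library. Endothelial markers summed to 3352 to 4900 after AMI, 5073 to 7019 in homeostatic Bmi1-CPC and 1303 to 2807 in the Sca-1-YFP- cells. In RNA from bulk cells, fewer cells of a type and less RNA per cell cannot be told apart.

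Of the 70 genes, 54 had a promoter of 300 bases (250 before to 50 after the start) in the RefSeq sequences of build GRCm38.p6. The core of the ISRE, GAAANNGAAA on either strand (TTTCNNTTTC on the other), a repeat that IRF factors bind as well, was found in 24 of these 54 promoters (44.4%), against 3.99% of the 27025 genes with such a promoter. Among the 34 of 49 effectors and induced genes that had a promoter entry it was in 22 (64.7%), and among the 20 receptors, kinases, STAT and IRF factors and Isg20l2 in 2, Stat2 and Irf2. The GAS core, TTCNNNGAA, which reads the same on both strands, was in 16 of the 54 promoters (29.6%), against 9.55% of all. These are matches of letters in one window and nothing was measured at them. The windows below are a selection of the matches, and Isg15 and Ifit1 among them passed in neither comparison in the main fit. Ifi205, lower in homeostatic Bmi1-CPC than in the Sca-1-YFP- cells, and the gene listed as Gbp5 also had matches, not printed here. Capitals mark the ISRE cores, and each window is written 5′ to 3′ on the strand of its gene.
Isg15, chr4:156200863-156200908, minus strand: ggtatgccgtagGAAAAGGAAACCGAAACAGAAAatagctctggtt
Ifit1, chr19:34640773-34640825, plus strand: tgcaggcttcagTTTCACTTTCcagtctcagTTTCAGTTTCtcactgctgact
Ifit3, chr19:34583361-34583428, plus strand: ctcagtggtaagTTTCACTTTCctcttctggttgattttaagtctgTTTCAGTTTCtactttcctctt
Rsad2, chr12:26456551-26456584, minus strand: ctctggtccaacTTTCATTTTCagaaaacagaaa
Oas1a, chr5:120907518-120907557, minus strand: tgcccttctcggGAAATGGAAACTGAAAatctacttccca
Stat2, chr10:128270264-128270297, plus strand: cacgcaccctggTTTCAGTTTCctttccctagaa
Gbp2, chr3:142620592-142620625, plus strand: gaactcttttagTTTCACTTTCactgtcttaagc
Gbp3, chr3:142559987-142560026, plus strand: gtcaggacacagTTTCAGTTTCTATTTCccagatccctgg
Gbp7, chr3:142530271-142530304, plus strand: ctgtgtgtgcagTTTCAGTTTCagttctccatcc
Igtp, chr11:58199510-58199543, plus strand: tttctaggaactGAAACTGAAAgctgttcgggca
Irgm2, chr11:58214901-58214934, plus strand: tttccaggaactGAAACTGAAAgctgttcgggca
The matches in Isg15 lay 78 to 66 bases before the start and overlapped each other, so that 3 cores shared 1 run of GAAA repeats. Ifit1 and Ifit3 carried 2 separate cores each. Igtp and Irgm2, neighbours on chromosome 11, had the same 10 letters in their cores.

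In homeostasis, 25 of the 49 induced genes and effectors were higher in Bmi1-CPC than in the Sca-1-YFP- cells, 3 were lower and 21 did not pass. Their summed level was 4262 to 5775 in homeostatic Bmi1-CPC and 2806 to 4474 in the Sca-1-YFP- cells, with overlap. Of the 70 genes, 30 were higher in Bmi1-CPC, 3 were lower (Ifi204, Ifi205 and Ifi27l2a) and 37 did not pass an adjusted p under 0.05 (limma, adjusted over all 12450 genes tested). Over all genes tested, 34.4% were called, 16.8% higher and 17.6% lower, against 42.9% higher and 4.29% lower among the 70. The median log2 fold change of the 70 genes was 0.48, against 0.00 over all genes, with 53 values above 0 and 17 below. The same-numbered pools of both populations varied together across the transcriptome, and a fit with the pool as a block called 41 genes higher and 3 lower. Scaling by library totals, which moved the median of all genes by -0.25, left 21 higher and 7 lower.

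After AMI the balance was the other way. Bmi1-CPC from infarcted hearts were higher than homeostatic Bmi1-CPC in 6 of the 70 genes (Irf4, Irf5, Mx1, Ifi27l2a, Ifi204 and Ifi30) and lower in 23, and 41 did not pass. Over the 12486 genes tested, 43.4% were called, 21.4% higher and 22.0% lower, against 8.57% higher and 32.9% lower among the 70. The median log2 fold change was -0.27, against -0.02 over all genes. The number of genes called lower was 18 to 34 when single libraries were left out, with 34 without homeostatic library 1. Both comparisons use the same 4 homeostatic Bmi1-CPC libraries, so a gene that happened to be high in them tends to be called higher in the first comparison and lower in the second. Each comparison is therefore given by its own values. The AMI and homeostatic Bmi1-CPC groups also differed in surgery, in days since tamoxifen and in mice per pool. These differences and the infarct cannot be told apart.

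**Figure D1:**
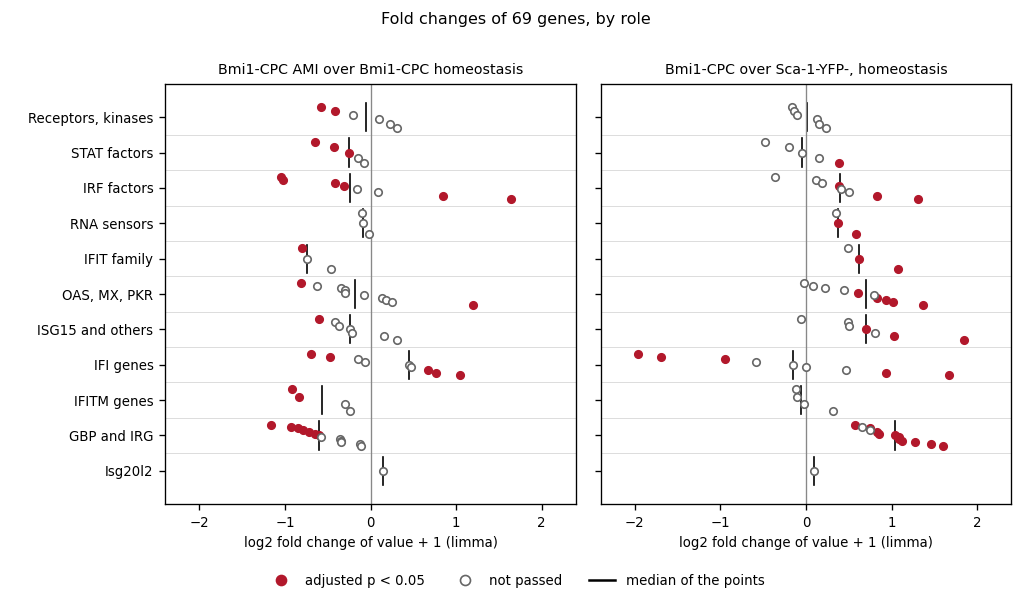
Log2 fold changes of value + 1 for 69 of the 70 genes by role, Bmi1-CPC AMI over homeostatic Bmi1-CPC on the left and homeostatic Bmi1-CPC over the Sca-1-YFP- cells on the right. Each point is 1 gene, filled where the adjusted p was under 0.05, and the bar is the median of the points drawn in its list; the 13 GBP and IRG genes are all above 0 on the right and all below 0 on the left, while the receptors and kinases lie around 0 on the right.

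The receptors and kinases, which set what a cell can sense, were not called between the 2 homeostatic populations in 6 of 6 cases, and 2 of them fell after AMI. The shares called, 0 and 33.3%, were below the 34.4 and 43.4% of all genes. With library totals, Ifngr1 was called lower in homeostatic Bmi1-CPC than in the Sca-1-YFP- cells (-0.42, edgeR adjusted p 0.0303) and the fall of Ifnar2 was not called (-0.32, 0.0980). Ifnar1, one chain of the type I receptor, had normalized values of 84.3, 90.8, 79.2 and 91.3 in AMI libraries, 70.3, 72.0, 70.3 and 83.5 in homeostatic Bmi1-CPC and 64.4, 70.5, 72.8 and 62.5 in the Sca-1-YFP- cells. AMI library 3 alone lay below the highest homeostatic Bmi1-CPC library (AMI against homeostatic Bmi1-CPC, log2 fold change 0.22 ± 0.09 SE, limma adjusted p = 0.0755); without homeostatic library 4 the log2 fold change was 0.28 and the adjusted p 0.0389. Ifnar2, its partner, had 83.3, 71.9, 84.7 and 85.1 after AMI. Ifnar2 was at 106, 107, 113 and 108 in homeostatic Bmi1-CPC and at 95.1, 105, 98.6 and 91.2 in the Sca-1-YFP- cells. All 4 AMI libraries were below all 8 others (log2 fold change -0.41 ± 0.09 SE, limma adjusted p = 0.00248 after AMI; log2 fold change 0.15, limma adjusted p = 0.256 between populations). Tyk2, the kinase that sits on Ifnar1, had 15.0, 14.1, 15.1 and 11.4 after AMI. Tyk2 was at 24.4, 18.02, 23.3 and 19.3 in homeostatic Bmi1-CPC and at 15.7, 17.5, 17.8 and 20.6 in the Sca-1-YFP- cells. It fell after AMI without overlap between the Bmi1-CPC groups (log2 fold change -0.58 ± 0.14 SE, limma adjusted p = 0.00701).

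The remaining receptor genes were not called in either comparison, apart from Ifngr1 with library totals. Jak1, the kinase used by both receptor types, had 376, 398, 368 and 382 after AMI, 345, 371, 362 and 342 in homeostatic Bmi1-CPC and 352, 421, 401 and 358 in the Sca-1-YFP- cells (log2 fold change 0.10, limma adjusted p = 0.332 after AMI; log2 fold change -0.11, limma adjusted p = 0.483 between populations). Ifngr1, the ligand-binding chain of the interferon gamma receptor, had 116, 124, 120.2 and 144 after AMI. Ifngr1 was at 173, 139, 127 and 146 in homeostatic Bmi1-CPC and at 180.0, 169, 154 and 148 in the Sca-1-YFP- cells. Its partner Ifngr2 had 26.6, 29.9, 31.5 and 26.9 after AMI. Ifngr2 was at 16.7, 21.0, 28.1 and 27.5 in homeostatic Bmi1-CPC and at 26.0, 22.2, 29.6 and 23.6 in the Sca-1-YFP- cells. Values of both chains overlapped between the groups of each comparison, and 0 of the 23 interferon ligand symbols searched for was among the genes of the tables, so levels of the ligands were not analysed here.

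Stat2, used by type I signals only, had 71.7, 69.2, 82.5 and 80.4 after AMI. Stat2 was at 105, 131, 122 and 120.3 in homeostatic Bmi1-CPC and at 80.9, 91.3, 97.2 and 94.5 in the Sca-1-YFP- cells. No values overlapped in either comparison: Stat2 was higher in homeostatic Bmi1-CPC than in the Sca-1-YFP- cells (log2 fold change 0.39 ± 0.11 SE, limma adjusted p = 0.0133; 0.35 and 0.0512 without pool 2 of both populations, and 0.15 and 0.457 with library totals) and lower after AMI (log2 fold change -0.65 ± 0.10 SE, limma adjusted p = 0.000307).

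Stat5b and Stat6, which serve growth hormone and interleukin signals more than interferons, also fell after AMI. Stat5b averaged 24.7 ± 3.55 after AMI and 33.3 ± 3.27 in homeostatic Bmi1-CPC (SD, n = 4 each; log2 fold change -0.42, limma adjusted p = 0.0183), and Stat6 averaged 60.5 ± 2.95 and 72.3 ± 4.81 (log2 fold change -0.25, limma adjusted p = 0.0380). Both calls were lost when AMI library 1 or 2 was left out (adjusted p 0.0588 and 0.0599 for Stat5b, 0.0723 and 0.102 for Stat6), and Stat6 was also lost without homeostatic library 3 or 4 (0.066 and 0.105) or AMI library 3 (0.0992). Neither was called with library totals (edgeR adjusted p 0.170 and 0.435), nor Stat6 with edgeR's TMM (0.0501), while library totals called Stat6 lower in homeostatic Bmi1-CPC than in the Sca-1-YFP- cells (-0.45, 0.0201). Stat5a averaged 8.84 ± 0.294 after AMI, 9.68 ± 3.32 in homeostatic Bmi1-CPC and 13.6 ± 3.09 in the Sca-1-YFP- cells and was not called (log2 fold change -0.48, limma adjusted p = 0.131 between populations). Without homeostatic Bmi1-CPC library 2 it was lower in Bmi1-CPC (log2 fold change -0.67, adjusted p 0.0247), as it was with library totals (-0.73, 0.0392). Stat5a and Stat5b share a stretch of 440 bases at 96.4% identity, and reads from it cannot be assigned to one of them with certainty. Stat3 was called in neither comparison (165 ± 8.09 after AMI, 186 ± 38.5 in homeostatic Bmi1-CPC and 189 ± 23.3 in the Sca-1-YFP- cells).

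The 8 IRF factors measured went in different directions. Irf7, the factor that amplifies type I interferon production, had 24.3, 17.4, 22.8 and 19.1 after AMI. Irf7 was at 27.7, 65.1, 45.4 and 44.6 in homeostatic Bmi1-CPC and at 23.1, 39.8, 23.1 and 16.1 in the Sca-1-YFP- cells. Its AMI libraries were all below the homeostatic ones (log2 fold change -1.04 ± 0.21 SE, limma adjusted p = 0.00208), and the homeostatic mean was 2.18 times theirs, whereas the 2 homeostatic populations overlapped (log2 fold change 0.83 ± 0.27 SE, limma adjusted p = 0.0316). That last call was lost without any one of homeostatic Bmi1-CPC libraries 2, 3 or 4 or Sca-1-YFP- libraries 1, 3 or 4 (adjusted p 0.0635 to 0.100), and with library totals (0.0690). Irf9, the DNA-binding part of the complex with Stat2, had 54.5, 55.4, 60.4 and 66.0 after AMI. Irf9 was at 67.3, 97.3, 78.6 and 73.9 in homeostatic Bmi1-CPC and at 53.1, 81.2, 50.8 and 55.6 in the Sca-1-YFP- cells. It was lower after AMI without overlap (log2 fold change -0.41 ± 0.12 SE, limma adjusted p = 0.0161; adjusted p 0.0503 without AMI library 1, and 0.149 with library totals). Between the populations Irf9 was not called (log2 fold change 0.40, limma adjusted p = 0.0732), but was with the pool as a block (adjusted p 0.0100) and without Sca-1-YFP- library 2 (log2 fold change 0.56, adjusted p 0.0062).

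Irf3, which is present before any signal and starts the type I response, had 14.5, 14.6, 16.4 and 17.5 after AMI. Irf3 was at 30.9, 33.8, 34.2 and 33.3 in homeostatic Bmi1-CPC and at 28.0, 32.4, 28.5 and 32.7 in the Sca-1-YFP- cells. Its AMI libraries were close to each other and all below the other 8 (log2 fold change -1.03 ± 0.11 SE, limma adjusted p = 3.63e-05), and the 2 homeostatic populations overlapped (log2 fold change 0.12, limma adjusted p = 0.477). Irf4, known from lymphocytes and from macrophage polarization, was higher in both comparisons, with 30.7, 21.4, 10.7 and 11.8 after AMI. Irf4 was at 4.29, 5.65, 4.02 and 5.41 in homeostatic Bmi1-CPC and at 1.00, 2.34, 0.348 and 2.35 in the Sca-1-YFP- cells. The 3 groups did not overlap (log2 fold change 1.64 ± 0.28 SE, limma adjusted p = 0.000729 after AMI; log2 fold change 1.31 ± 0.30 SE, limma adjusted p = 0.00464 between populations), and AMI libraries 1 and 2 were above AMI libraries 3 and 4. Irf5, which acts below Toll-like receptors in myeloid cells, averaged 3.90 ± 1.02 after AMI, 1.75 ± 0.727 in homeostatic Bmi1-CPC and 2.53 ± 0.898 in the Sca-1-YFP- cells (log2 fold change 0.84, limma adjusted p = 0.0156 after AMI; log2 fold change -0.36, limma adjusted p = 0.350 between populations), on 17 to 33 reads per library after AMI and 3 to 11 in homeostatic Bmi1-CPC. The call after AMI was lost without AMI library 1 or 2 (adjusted p 0.0512 and 0.0516). Irf5 also shares 411 exon bases (14.1% of its exons) with Tnpo3 on the opposite strand. The kit used does not mark strand, so the level of Irf5 is uncertain. After AMI, 9 of 9 leukocyte and 11 of 12 macrophage markers were higher as well. All 9 and all 11 tested were also higher in homeostatic Bmi1-CPC than in the Sca-1-YFP- cells, as was Irf4 but not Irf5; the part of those cells in the result was not tested.

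Irf2, which competes with Irf1 for the same sites, averaged 39.4 ± 4.23 after AMI, 49.2 ± 5.11 in homeostatic Bmi1-CPC and 37.4 ± 4.22 in the Sca-1-YFP- cells. It was called lower after AMI (log2 fold change -0.31, limma adjusted p = 0.0435) and higher in Bmi1-CPC than in the Sca-1-YFP- cells (log2 fold change 0.39, limma adjusted p = 0.0316), and both calls were lost in some settings. The first was lost without any one of homeostatic libraries 2 to 4 or AMI libraries 1 to 3 (adjusted p 0.0772 to 0.13), and the second without homeostatic Bmi1-CPC library 2, 3 or 4 or Sca-1-YFP- library 1 or 3 (0.0676 to 0.0997). With library totals neither was called (0.353 and 0.464), nor was the first with DESeq2 (0.0518). Irf1 averaged 102 ± 14.3 after AMI, 126 ± 73.7 in homeostatic Bmi1-CPC and 84.8 ± 38.8 in the Sca-1-YFP- cells and was not called (log2 fold change 0.51, limma adjusted p = 0.291 between populations, but 0.00193 with the pool as a block). Irf8, a myeloid factor, averaged 10.7 ± 1.77, 10.5 ± 4.52 and 9.03 ± 3.28 in the same order and was not called either.

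The 3 cytoplasmic RNA sensors gave 2 calls higher in homeostatic Bmi1-CPC than in the Sca-1-YFP- cells and 0 calls after AMI. That is 66.7 and 0% called, against 34.4 and 43.4% of all genes. Ifih1, which codes for MDA5, averaged 111 ± 16.9 after AMI, 119 ± 13.6 in homeostatic Bmi1-CPC and 80.0 ± 16.9 in the Sca-1-YFP- cells (log2 fold change 0.58, limma adjusted p = 0.00767 between populations; log2 fold change -0.11, limma adjusted p = 0.523 after AMI). Ddx58, which codes for RIG-I, averaged 114 ± 10.4, 115 ± 9.76 and 88.9 ± 11.1 (log2 fold change 0.37, limma adjusted p = 0.0268; log2 fold change -0.01, limma adjusted p = 0.919), and its call between populations was lost without homeostatic Bmi1-CPC library 3 or 4 or Sca-1-YFP- library 1 or 2 (adjusted p 0.0519 to 0.089). Dhx58, the related LGP2, was not called at 8.14 ± 1.76, 8.63 ± 0.883 and 6.56 ± 0.445 (log2 fold change 0.35, limma adjusted p = 0.137; log2 fold change -0.09, limma adjusted p = 0.707). With library totals neither Ifih1 nor Ddx58 was called between populations (adjusted p 0.113 and 0.58).

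Rsad2 had the largest fold between the homeostatic populations among the 30 genes called higher. This gene, which codes for the antiviral enzyme viperin, had 138, 119, 170.3 and 175 after AMI. Rsad2 was at 148, 227, 232 and 198 in homeostatic Bmi1-CPC and at 30.4, 102, 49.1 and 56.7 in the Sca-1-YFP- cells. Each Bmi1-CPC library, homeostatic or AMI, was above the highest Sca-1-YFP- library, and the homeostatic mean was 3.38 times that of Sca-1-YFP- cells (log2 fold change 1.85 ± 0.28 SE, limma adjusted p = 0.000254). After AMI it was not called (log2 fold change -0.41, limma adjusted p = 0.0524), and was called without homeostatic library 1 (-0.55, adjusted p 0.00704) or AMI library 4 (-0.49, 0.0353), and with DESeq2 (-0.41, 0.0417). Isg15, the ubiquitin-like modifier, had 21.0, 16.9, 26.2 and 19.1 after AMI. Isg15 was at 17.0, 31.7, 13.3 and 15.5 in homeostatic Bmi1-CPC and at 7.53, 20.8, 8.94 and 7.04 in the Sca-1-YFP- cells. Library 2 was highest in both homeostatic populations by a wide margin, and the groups overlapped (log2 fold change 0.80 ± 0.33 SE, limma adjusted p = 0.0761 between populations; log2 fold change 0.16, limma adjusted p = 0.613 after AMI). With the pool as a block, Isg15 was called between the populations (adjusted p 0.00224), as it was without Sca-1-YFP- library 2 (log2 fold change 1.13, adjusted p 0.00442).

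Among the other type I effectors, Bst2 (tetherin, which holds budding virus at the cell surface) averaged 36.9 ± 5.22 after AMI, 43.7 ± 2.69 in homeostatic Bmi1-CPC and 21.0 ± 3.29 in the Sca-1-YFP- cells (log2 fold change 1.03, limma adjusted p = 8.48e-05 between populations; log2 fold change -0.24, limma adjusted p = 0.108 after AMI). Xaf1, a partner of the apoptosis inhibitor XIAP, averaged 42.1 ± 3.71, 64.3 ± 7.11 and 39.3 ± 5.20; it was higher in homeostatic Bmi1-CPC than in the Sca-1-YFP- cells (log2 fold change 0.70, limma adjusted p = 0.00106) and lower after AMI (log2 fold change -0.60, limma adjusted p = 0.00107), without overlap in either. Rtp4 averaged 41.4 ± 5.60, 48.3 ± 6.74 and 34.8 ± 11.7 and was not called (log2 fold change 0.50, limma adjusted p = 0.0638 between populations), though it was with the pool as a block (0.0115) and without Sca-1-YFP- library 2 (log2 fold change 0.71, adjusted p 0.00219). Usp18, which removes Isg15 from proteins and damps Ifnar2, and the exonuclease gene Isg20 were called in neither comparison. Isg20l2, matched by name only, serves ribosomal RNA processing and was not called (17.3 ± 1.41 after AMI, 15.8 ± 3.82 in homeostatic Bmi1-CPC and 14.6 ± 2.63 in the Sca-1-YFP- cells).

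**Figure D2:**
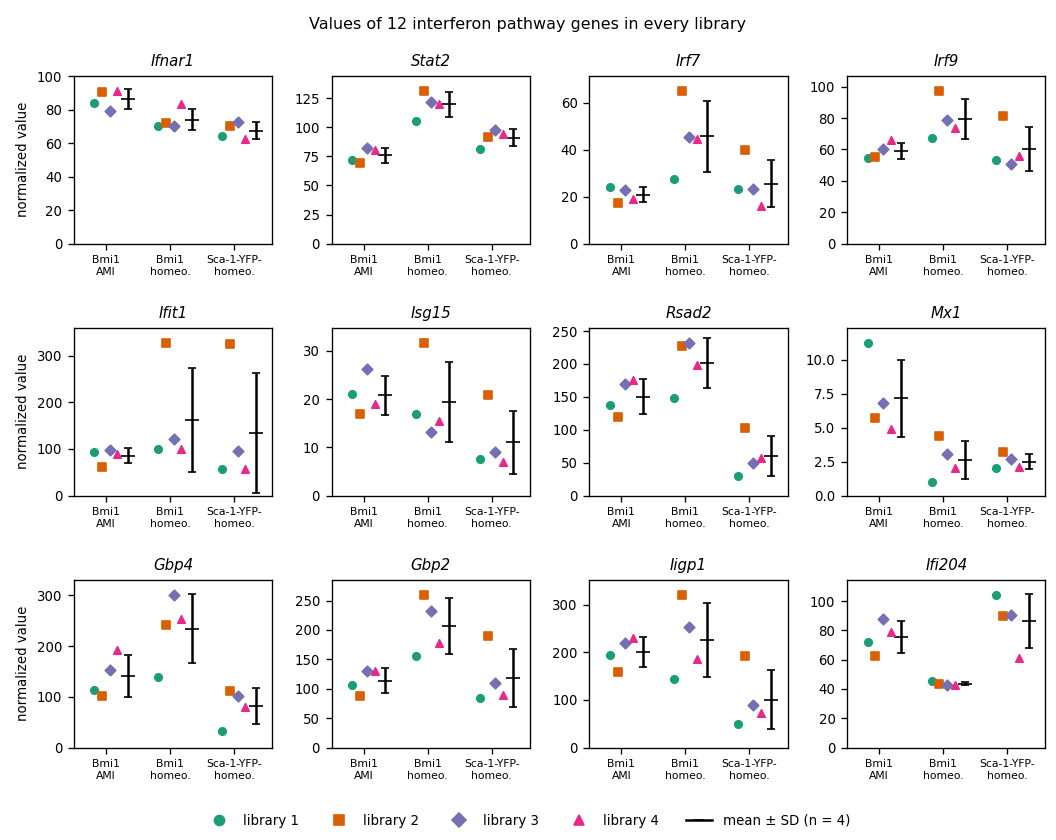
Normalized values of 12 genes in each of the 12 libraries, from left to right Bmi1-CPC AMI, homeostatic Bmi1-CPC and Sca-1-YFP- cells; point shape and colour give the library number and the bar the mean ± SD (n = 4). Library 2 stands highest in both homeostatic groups for Ifit1, Isg15, Irf7, Irf9, Iigp1 and Gbp2, and Ifi204 and Mx1 are higher after AMI than in homeostatic Bmi1-CPC.

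The IFIT genes, whose products bind foreign RNA, were highest in pool 2 of both homeostatic populations. Ifit1 had 92.8, 62.2, 98.2 and 88.5 after AMI. Ifit1 was at 99.3, 327, 121 and 101 in homeostatic Bmi1-CPC and at 57.0, 325, 95.4 and 56.7 in the Sca-1-YFP- cells. Pool 2 had about the same high value in both populations, and each AMI value lay below the lowest homeostatic Bmi1-CPC value (log2 fold change -0.74 ± 0.32 SE, limma adjusted p = 0.0781; log2 fold change 0.49 ± 0.51 SE, limma adjusted p = 0.509 between populations). With the pool as a block Ifit1 was called between the populations (adjusted p 0.0112), and without pool 2 of both populations the log2 fold change was 0.65 and the adjusted p 0.0243. After AMI it was called without homeostatic library 1 (-0.91, adjusted p 0.044), with edgeR's TMM (-0.91, 0.0452) and with library totals (-0.85, edgeR adjusted p 0.0334). Ifit2 averaged 121 ± 18.6 after AMI, 218 ± 79.4 in homeostatic Bmi1-CPC and 109 ± 61.4 in the Sca-1-YFP- cells. It was called between populations (log2 fold change 1.07, limma adjusted p = 0.0171) and after AMI (log2 fold change -0.80, limma adjusted p = 0.00808). The first call was lost without homeostatic Bmi1-CPC library 2 or Sca-1-YFP- library 4 (adjusted p 0.0562 and 0.0597) and with DESeq2 (0.0600). Ifit3 averaged 65.0 ± 15.2, 89.2 ± 17.6 and 59.1 ± 20.4 (log2 fold change 0.63, limma adjusted p = 0.0351; log2 fold change -0.46, limma adjusted p = 0.0510). Its call between populations was lost without homeostatic Bmi1-CPC library 2 or 3 or Sca-1-YFP- library 1, 3 or 4 (adjusted p 0.0596 to 0.11) and with library totals (0.182), and after AMI it was called without homeostatic library 1 or AMI library 1 or 3 (0.0323 to 0.0411). Ifit3 shares 1700 bases at 97.8% identity with Ifit3b, so its level is uncertain.

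Of the 10 OAS, MX and PKR genes, 5 were higher in homeostatic Bmi1-CPC (Eif2ak2, Oas1a, Oas1b, Oas2 and Oasl1) and none was lower. After AMI 1 was higher and 1 lower. These are 50% called in homeostasis and 20% after AMI, against 34.4 and 43.4% of all genes. Oasl1, known in mouse as a brake on Irf7 translation, had 5.35, 5.95, 8.09 and 6.46 after AMI. Oasl1 was at 6.66, 18.2, 9.14 and 10.5 in homeostatic Bmi1-CPC and at 1.84, 9.25, 2.67 and 2.62 in the Sca-1-YFP- cells. Pool 2 was highest in both homeostatic populations, and the Sca-1-YFP- value of that pool alone reached into the Bmi1-CPC range (log2 fold change 1.37 ± 0.38 SE, limma adjusted p = 0.0142). After AMI Oasl1 was not called. It was called lower there with edgeR's TMM (-0.78, adjusted p 0.0391), with DESeq2 (-0.78, 0.0289) and without homeostatic library 1 (-0.82, limma adjusted p 0.0142). Oas2, which makes 2'-5' oligoadenylate when it meets double-stranded RNA, averaged 72.6 ± 10.8 after AMI, 95.3 ± 29.5 in homeostatic Bmi1-CPC and 45.6 ± 9.99 in the Sca-1-YFP- cells (log2 fold change 1.02, limma adjusted p = 0.00331 between populations; log2 fold change -0.34, limma adjusted p = 0.185 after AMI, -0.55 and 0.0114 without homeostatic library 1). Eif2ak2, the kinase PKR that stops translation, averaged 85.3 ± 5.88, 72.7 ± 14.3 and 46.7 ± 2.93 (log2 fold change 0.61, limma adjusted p = 0.00452; log2 fold change 0.25, limma adjusted p = 0.151), and with library totals it was not called between populations (0.38, edgeR adjusted p 0.0991). Oas1a averaged 13.9 ± 1.60, 17.5 ± 3.65 and 8.87 ± 2.87 (log2 fold change 0.93, limma adjusted p = 0.00565), and shares 1861 bases at 97.6% identity with Oas1g. Oas1b averaged 4.97 ± 1.80 after AMI, 9.41 ± 2.54 in homeostatic Bmi1-CPC and 4.76 ± 0.749 in the Sca-1-YFP- cells and was called in both comparisons (log2 fold change -0.82, limma adjusted p = 0.0205 after AMI; log2 fold change 0.83, limma adjusted p = 0.0104 between populations). Oas1c, Oas1g and Oasl2 were called in neither.

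Mx1, a gene of the dynamin-like GTPases, was higher after AMI, the only one of the 10 OAS, MX and PKR genes called in that direction. Its RNA level does not show whether an active antiviral protein was made. Mx1 had 11.2, 5.67, 6.80 and 4.90 after AMI. Mx1 was at 1.04, 4.37, 3.05 and 2.04 in homeostatic Bmi1-CPC and at 2.05, 3.23, 2.67 and 2.07 in the Sca-1-YFP- cells. The AMI values were all above the homeostatic ones, with library 1 far above the other 3, and the 2 homeostatic populations overlapped (log2 fold change 1.20 ± 0.31 SE, limma adjusted p = 0.00851 after AMI; log2 fold change -0.03, limma adjusted p = 0.954 between populations). Mx2, its paralog, averaged 18.5 ± 3.02 after AMI and 25.8 ± 17.0 in homeostatic Bmi1-CPC and was not called (log2 fold change -0.30, limma adjusted p = 0.447); the 2 genes share 843 bases at 95.3% identity. Mx1 rested on 74, 40, 52 and 34 reads after AMI and on 3, 20, 12 and 8 reads in homeostatic Bmi1-CPC.

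The numbered Ifi genes are grouped by name rather than by one function, and they held all 3 genes that were lower in homeostatic Bmi1-CPC than in the Sca-1-YFP- cells. Ifi205, a DNA-binding protein gene of the p200 family, had 66.1, 42.8, 47.8 and 24.1 after AMI. Ifi205 was at 74.4, 48.1, 21.1 and 51.1 in homeostatic Bmi1-CPC and at 217, 162, 139 and 195 in the Sca-1-YFP- cells. Its Sca-1-YFP- values were all above the 8 of Bmi1-CPC (log2 fold change -1.96 ± 0.29 SE, limma adjusted p = 0.000213), and it was not called after AMI (log2 fold change -0.06, limma adjusted p = 0.903). Ifi204, of the same family, had 72.0, 62.2, 88.0 and 79.1 after AMI. Ifi204 was at 45.1, 43.2, 43.0 and 42.6 in homeostatic Bmi1-CPC and at 104, 89.7, 90.7 and 60.8 in the Sca-1-YFP- cells. The homeostatic Bmi1-CPC libraries were nearly equal and below all 8 others, so Ifi204 was lower than in the Sca-1-YFP- cells (log2 fold change -0.95 ± 0.15 SE, limma adjusted p = 0.000321) and higher after AMI (log2 fold change 0.77 ± 0.11 SE, limma adjusted p = 0.000215). Ifi27l2a, a small mitochondrial protein gene, had 26.8, 17.7, 29.3 and 16.8 after AMI. Ifi27l2a was at 16.7, 11.2, 5.73 and 9.49 in homeostatic Bmi1-CPC and at 43.0, 35.8, 28.7 and 33.8 in the Sca-1-YFP- cells. It followed Ifi204 in both comparisons without overlap (log2 fold change -1.69 ± 0.25 SE, limma adjusted p = 0.000194 between populations; log2 fold change 1.05 ± 0.27 SE, limma adjusted p = 0.00850 after AMI).

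Ifi204 and Ifi205 share 1363 and 1101 bases with Ifi211 at 96.9 and 97.4% identity, and Ifi203 shares 1799 bases at 96.8% with a pseudogene, so the split of reads between these copies is uncertain. Ifi204, Ifi205 and Ifi27l2a were lower in homeostatic Bmi1-CPC than in the Sca-1-YFP- cells, as were 10 of 10 fibroblast markers. Ifi204 and Ifi27l2a were higher after AMI, as were 6 of the 10 markers, with Gsn and Tcf21 lower and 2 not called (summed level 13204 to 18387 after AMI, 4214 to 7854 in homeostatic Bmi1-CPC and 22409 to 26054 in the Sca-1-YFP- cells); the part of those cells in the result was not tested. Ifi30, a lysosomal thiol reductase of antigen-presenting cells, had 17.3, 12.7, 15.5 and 11.6 after AMI. Ifi30 was at 8.73, 10.1, 6.21 and 9.25 in homeostatic Bmi1-CPC and at 12.6, 8.36, 7.55 and 10.3 in the Sca-1-YFP- cells. It was higher after AMI (log2 fold change 0.67 ± 0.18 SE, limma adjusted p = 0.0104), as were 9 of 9 leukocyte markers, whose part was not tested, and was not called between populations (log2 fold change -0.16, limma adjusted p = 0.617).

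Ifi44 was the reverse of Ifi205. It had 124, 105, 144 and 139 after AMI. Ifi44 was at 66.1, 72.4, 115 and 127 in homeostatic Bmi1-CPC and at 12.2, 48.0, 33.1 and 31.9 in the Sca-1-YFP- cells, with all 8 Bmi1-CPC libraries above all 4 of Sca-1-YFP- cells (log2 fold change 1.67 ± 0.34 SE, limma adjusted p = 0.00200). All 4 AMI libraries lay above homeostatic libraries 1 and 2 (log2 fold change 0.47, limma adjusted p = 0.0712), and Ifi44 was called higher without homeostatic library 3 or 4 (adjusted p 0.0394 and 0.0206). Ifi203 averaged 418 ± 76.7 after AMI, 458 ± 32.9 in homeostatic Bmi1-CPC and 243 ± 50.2 in the Sca-1-YFP- cells (log2 fold change 0.93, limma adjusted p = 0.000362 between populations; log2 fold change -0.15, limma adjusted p = 0.373 after AMI). Ifi35 averaged 14.9 ± 1.30, 25.3 ± 6.45 and 17.7 ± 1.56; it fell after AMI (log2 fold change -0.70, limma adjusted p = 0.00452), and between populations it missed the threshold (log2 fold change 0.47, limma adjusted p = 0.0506) but passed with the pool as a block (0.0345) and without homeostatic Bmi1-CPC library 3 or 4 (0.0457 and 0.045). The gene listed as Ifi27l1, whose identifier GENCODE vM21 names Ifi27, averaged 34.8 ± 4.49, 48.6 ± 6.15 and 48.5 ± 5.91 and fell after AMI (log2 fold change -0.47, limma adjusted p = 0.00977; -0.36 and 0.0901 with library totals). Ifi202b was at low values that spread from no read to 14.8 within the AMI group and was not called.

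Some genes of the Ifitm family keep viruses from fusing with the cell and are also expressed without interferon, and membership here is by name. The 4 Ifitm genes gave 0 of 4 calls between the homeostatic populations and 2 lower after AMI. That is 0 and 50% called, against 34.4 and 43.4% of all genes. Ifitm2 had 145, 139, 161 and 164 after AMI. Ifitm2 was at 265, 303, 264 and 327 in homeostatic Bmi1-CPC and at 300.2, 307, 275 and 287 in the Sca-1-YFP- cells. Its 4 AMI libraries were far below all 8 homeostatic ones, which overlapped each other (log2 fold change -0.92 ± 0.10 SE, limma adjusted p = 3.43e-05 after AMI; log2 fold change -0.02, limma adjusted p = 0.922 between populations). Ifitm3 averaged 391 ± 43.5 after AMI, 483 ± 87.0 in homeostatic Bmi1-CPC and 515 ± 32.2 in the Sca-1-YFP- cells and was not called (log2 fold change -0.29, limma adjusted p = 0.0993 after AMI, but -0.40 and 0.0242 without homeostatic library 3). Ifitm5 averaged 1.39 ± 0.393 after AMI and 3.32 ± 1.10 in homeostatic Bmi1-CPC (log2 fold change -0.84, limma adjusted p = 0.0130), and Ifitm1 2.46 ± 0.544 and 3.28 ± 1.60 (log2 fold change -0.24, limma adjusted p = 0.531), both near the level of a few reads. Ifitm2 and Ifitm5 share exon sequence with an overlapping read-through gene.

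The GBP and IRG GTPases, which coat and break the vacuoles of intracellular microbes and are induced above all by interferon gamma, moved in 1 direction per comparison: 11 of 13 were higher in homeostatic Bmi1-CPC than in the Sca-1-YFP- cells and 0 lower (median log2 fold change 1.05), and after AMI 0 were higher and 7 lower (median -0.60). That is 84.6% higher in homeostasis, against 16.8% of all genes, and 53.8% lower after AMI, against 22.0%. All 13 values were above 0 in the first comparison and below 0 in the second, also with library totals. With the pool as a block all 13 were higher, and without pool 2 of both populations 12 were. Summed over the 13 genes, the level was 1152 to 1649.7 after AMI, 1499 to 2541 in homeostatic Bmi1-CPC and 691 to 1527 in the Sca-1-YFP- cells. The 12 endothelial markers moved in the same directions, 12 of 12 higher in homeostatic Bmi1-CPC than in the Sca-1-YFP- cells and 8 of 12 lower after AMI, and so did the 11 cardiomyocyte markers (11 higher and 11 lower); the part of those cells in the result was not tested.

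Gbp4 had 114, 102, 154 and 193 after AMI. Gbp4 was at 139, 242, 301 and 254 in homeostatic Bmi1-CPC and at 32.1, 112, 102 and 79.9 in the Sca-1-YFP- cells. Library 1 was lowest in both homeostatic populations, and even so each homeostatic Bmi1-CPC library was above each Sca-1-YFP- library (log2 fold change 1.60 ± 0.34 SE, limma adjusted p = 0.00263). After AMI it was called lower with overlap (log2 fold change -0.72 ± 0.24 SE, limma adjusted p = 0.0272), a call lost without homeostatic library 2, 3 or 4 or AMI library 1 or 2 (adjusted p 0.0637 to 0.0839) and in the fit of all 12 libraries (0.095). Gbp9 had 272, 234, 271 and 324 after AMI. Gbp9 was at 238, 366, 463 and 369 in homeostatic Bmi1-CPC and at 84.7, 194, 136 and 115 in the Sca-1-YFP- cells. It did not overlap between the homeostatic populations (log2 fold change 1.46 ± 0.24 SE, limma adjusted p = 0.000415), and it was not called after AMI (log2 fold change -0.35, limma adjusted p = 0.121) except without homeostatic library 1 (-0.54, adjusted p 0.00567). Iigp1, an IRG protein gene, had 195, 159, 218 and 229 after AMI. Iigp1 was at 143, 320.4, 253 and 186 in homeostatic Bmi1-CPC and at 50.4, 191, 88.9 and 72.2 in the Sca-1-YFP- cells. Pool 2 was highest in both populations, and its Sca-1-YFP- value lay inside the Bmi1-CPC range (log2 fold change 1.27 ± 0.34 SE, limma adjusted p = 0.0115 between populations; log2 fold change -0.12, limma adjusted p = 0.687 after AMI).

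The steepest fall of this family after AMI was that of the gene listed as Gbp5, whose identifier GENCODE vM21 names Gbp2b. It had 37.5, 33.3, 41.1 and 41.8 after AMI. Gbp5 was at 87.7, 99.7, 89.3 and 73.2 in homeostatic Bmi1-CPC and at 29.9, 63.2, 37.3 and 34.1 in the Sca-1-YFP- cells, and the homeostatic Bmi1-CPC libraries stood above all 8 others (log2 fold change -1.16 ± 0.12 SE, limma adjusted p = 1.99e-05 after AMI; log2 fold change 1.12 ± 0.20 SE, limma adjusted p = 0.000718 between populations). Igtp, also called Irgm3, had 41.1, 30.2, 45.4 and 45.9 after AMI. Igtp was at 58.1, 77.9, 95.9 and 82.5 in homeostatic Bmi1-CPC and at 32.5, 65.6, 50.5 and 31.6 in the Sca-1-YFP- cells. Its AMI libraries were all below the homeostatic Bmi1-CPC libraries (log2 fold change -0.93 ± 0.17 SE, limma adjusted p = 0.000854), while the 2 homeostatic populations overlapped at pool 2 of Sca-1-YFP- cells (log2 fold change 0.83 ± 0.22 SE, limma adjusted p = 0.0114). Gbp2 had 107, 87.3, 130.0 and 131 after AMI. Gbp2 was at 155, 259.6, 233 and 178 in homeostatic Bmi1-CPC and at 83.6, 189, 110.2 and 88.7 in the Sca-1-YFP- cells. It gave the same picture, no overlap after AMI (log2 fold change -0.84 ± 0.17 SE, limma adjusted p = 0.00206) and overlap through pool 2 between the populations (log2 fold change 0.85 ± 0.24 SE, limma adjusted p = 0.0136).

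Gbp3, Gbp7 and Irgm2 were also called in both comparisons. Gbp3 averaged 86.7 ± 9.23 after AMI, 136 ± 15.4 in homeostatic Bmi1-CPC and 68.0 ± 24.4 in the Sca-1-YFP- cells (log2 fold change -0.65, limma adjusted p = 0.000671 after AMI; log2 fold change 1.05, limma adjusted p = 0.00105 between populations). Gbp7 averaged 229 ± 33.4, 353 ± 86.4 and 166 ± 45.9 (log2 fold change -0.60, limma adjusted p = 0.0146; log2 fold change 1.09, limma adjusted p = 0.00129). Irgm2 averaged 79.9 ± 11.5, 138 ± 15.0 and 94.6 ± 25.5 (log2 fold change -0.79, limma adjusted p = 0.000294; log2 fold change 0.58, limma adjusted p = 0.0182, lost without homeostatic Bmi1-CPC library 3 or Sca-1-YFP- library 4 at 0.0559 and 0.0529, and with library totals at 0.177). Of the other 4, Gbp6 and Ifi47 were higher in homeostatic Bmi1-CPC than in the Sca-1-YFP- cells (log2 fold change 0.74, limma adjusted p = 0.0324 and log2 fold change 1.08, limma adjusted p = 0.00360), and Gbp10 and Irgm1 were called in neither comparison. Gbp2, Gbp3, Gbp5 and Gbp7 lie together on chromosome 3, Gbp4, Gbp6 and Gbp9 on chromosome 5, and Igtp, Irgm1, Irgm2 and Ifi47 on chromosome 11. The genes of the chromosome 5 cluster share stretches of 265 to 3923 bases at 95% identity or more with each other or with near copies, the gene listed as Gbp6 (Gm43302 in GENCODE vM21) the longest, so reads of Gbp4, Gbp6 and Gbp9 may be split among them.

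**Figure D3:**
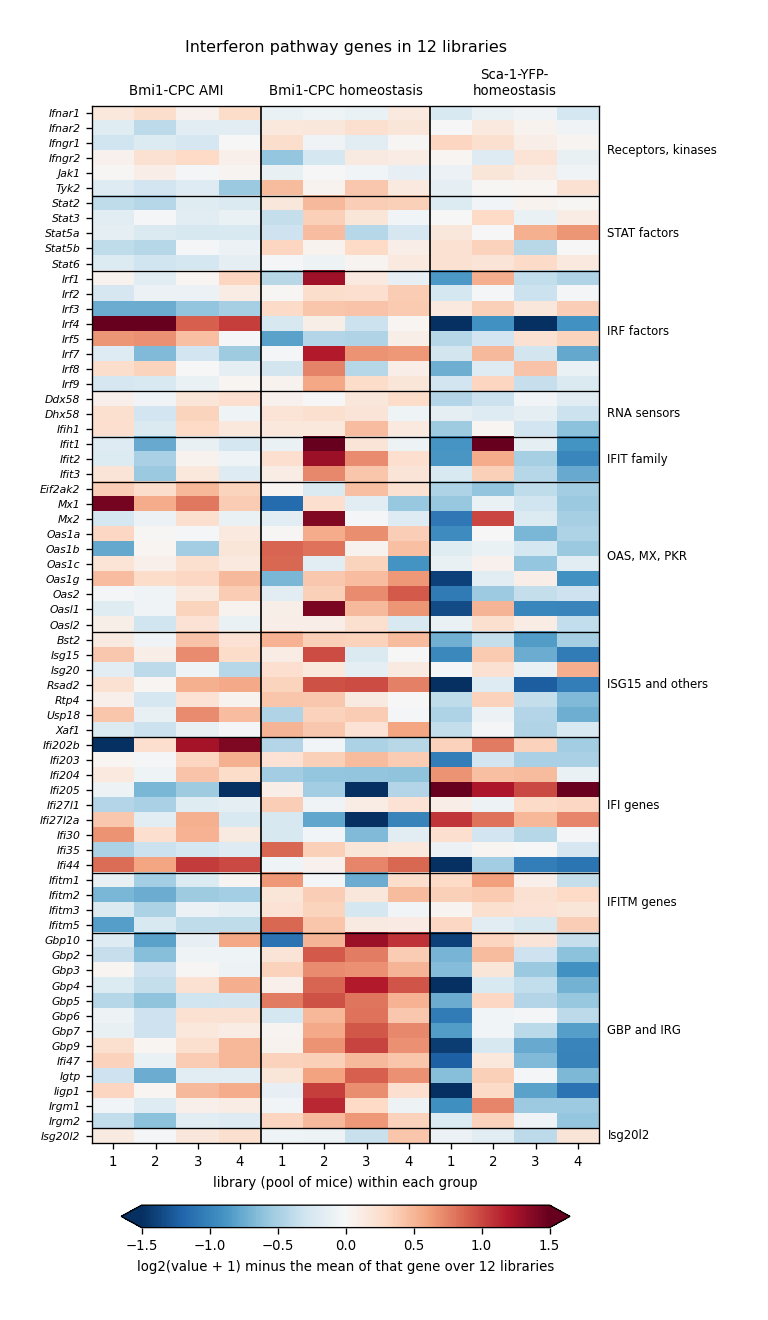
Each row is 1 gene, 69 of the 70, grouped by role, and each column 1 library, from left to right 4 Bmi1-CPC AMI, 4 homeostatic Bmi1-CPC and 4 Sca-1-YFP- libraries; colour gives log2(value + 1) minus the mean of that gene over the 12 libraries, cut at 1.5. The GBP and IRG rows are mostly red in homeostatic Bmi1-CPC libraries 2 to 4 and blue in Sca-1-YFP- libraries 1, 3 and 4, and Ifi204, Ifi205 and Ifi27l2a run the other way.

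The pools themselves differed in the level of these genes. Pool 2 held the highest of 4 values in both homeostatic Bmi1-CPC and Sca-1-YFP- cells for 19 of the 70 genes (27.1%), against 9.98% of all genes tested. These were Gbp2, Gbp3, Gbp5, Ifi202b, Ifit1, Ifit2, Ifit3, Ifitm3, Iigp1, Irf1, Irf7, Irf9, Irgm1, Isg15, Jak1, Mx1, Mx2, Oasl1 and Stat3. Pool 1 held the lowest value in both populations for 20 of 70 (28.6%), against 9.34% of all genes. They were Gbp2, Gbp4, Gbp6, Gbp7, Gbp9, Gbp10, Iigp1, Ifi47, Oas1a, Oas1g, Oas2, Oasl1, Mx1, Ifi44, Ifi203, Rsad2, Stat2, Irf1, Irf3 and Irf5. In Sca-1-YFP- cells alone, library 2 was the highest of 4 for 45 of 70 genes (64.3%), against 31.4% of all genes. After AMI, where the numbers do not pair with the homeostatic pools, library 2 was the lowest of 4 for 45 of 70 (64.3%), against 26.2% of all genes.

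**Figure D4:**
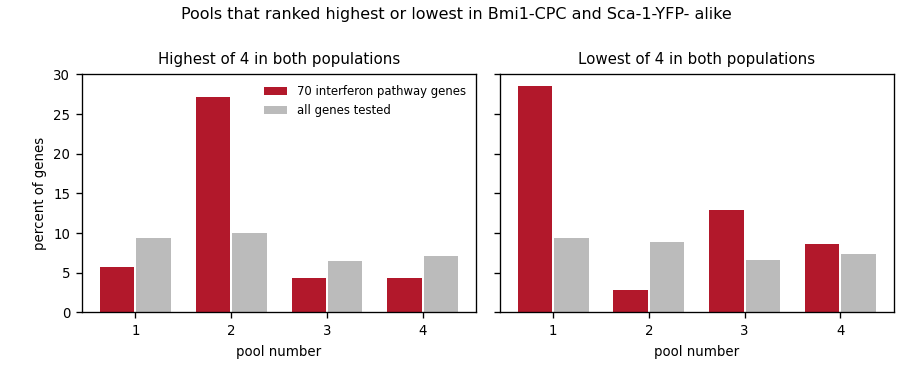
Percent of genes for which the pool on the horizontal axis held the highest (left) or the lowest (right) of 4 values in homeostatic Bmi1-CPC and in the Sca-1-YFP- cells at once, red for the 70 interferon pathway genes and grey for all genes tested. Pool 2 reaches 27.1% on the left and pool 1 28.6% on the right, where the grey bars stand at 9.98 and 9.34%.

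Within its own pool, Bmi1-CPC exceeded Sca-1-YFP- cells in 4 of 4 pools for 45 of the 70 genes, in 3 pools for 6, in 2 for 6, in 1 for 6 and in none for 7. Of all genes tested, 25.5% were higher in 4 of 4 pools, against 64.3% of the 70, and 25.0% in none, against 10.0%. Across the 70 genes, the deviations of Bmi1-CPC and Sca-1-YFP- libraries of the same number from their group means correlated at 0.72, 0.61, 0.41 and 0.37 for pools 1 to 4 (Pearson, over genes, which share the library and are not independent). Differently numbered libraries correlated between -0.49 and 0.37. The labels give no batch or date for the pools, and the source of the shifts was not tested.

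Other genes of the pathway were taken from lists rather than from the symbol rule. The lists were chosen with earlier results of these data known, so they are no independent check. Of 43 further interferon-induced genes tested in homeostasis, 31 were higher in Bmi1-CPC and 2 lower, and of 44 tested after AMI, 7 were higher and 22 lower. These are 72.1% higher and 4.65% lower in homeostasis, against 16.8 and 17.6% of all genes, and 15.9% higher and 50% lower after AMI, against 21.4 and 22.0%. Sp100, a nuclear body protein gene, averaged 249 ± 26.9 after AMI, 367 ± 46.1 in homeostatic Bmi1-CPC and 205 ± 21.5 in the Sca-1-YFP- cells (log2 fold change 0.84, limma adjusted p = 0.000170 between populations; log2 fold change -0.56, limma adjusted p = 0.00216 after AMI). Nlrc5, the activator of class I antigen presentation, averaged 21.5 ± 2.58, 31.5 ± 7.63 and 12.5 ± 2.10, and Slfn5 558 ± 71.0, 735 ± 114 and 383 ± 55.4 (log2 fold changes 1.25 and 0.94 between populations). After AMI the smallest adjusted p belonged to Znfx1 (85.1 ± 8.18 after AMI and 187 ± 29.8 in homeostatic Bmi1-CPC, log2 fold change -1.12, limma adjusted p = 2.92e-05), Uba7, the enzyme that activates Isg15 (29.9 ± 4.56 and 67.7 ± 10.7, log2 fold change -1.15, limma adjusted p = 6.89e-05), and Parp10 (11.7 ± 2.70 and 28.4 ± 6.79, log2 fold change -1.20, limma adjusted p = 0.000486).

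Of the 17 upstream sensors and adaptors, 5 were higher and 2 lower in homeostatic Bmi1-CPC than in the Sca-1-YFP- cells, and 4 were higher and 3 lower after AMI. That is 41.2% called in each comparison, near the 34.4 and 43.4% of all genes. Trim25, which activates RIG-I, was higher in homeostatic Bmi1-CPC (251 ± 23.4) than in the Sca-1-YFP- cells (132 ± 20.2; log2 fold change 0.92, limma adjusted p = 0.000111), and Mavs, the adaptor on mitochondria, fell after AMI (12.9 ± 1.38 against 26.0 ± 4.18 in homeostatic Bmi1-CPC; log2 fold change -0.95, limma adjusted p = 0.000249). Tlr4, the receptor for bacterial lipopolysaccharide, averaged 53.2 ± 3.03 after AMI, 36.5 ± 3.96 in homeostatic Bmi1-CPC and 62.7 ± 5.78 in the Sca-1-YFP- cells (log2 fold change 0.54, limma adjusted p = 0.00166; log2 fold change -0.77, limma adjusted p = 0.000328). Tlr7, a leukocyte receptor for single-stranded RNA, averaged 13.5 ± 4.24, 3.08 ± 1.91 and 0.300 ± 0.196 (log2 fold change 1.89, limma adjusted p = 0.000384; log2 fold change 1.56, limma adjusted p = 0.00178). Tlr7 was higher in the same 2 comparisons as the 9 leukocyte markers, whose part was not tested. In the Sca-1-YFP- cells the mean of Tlr7 lay under the value of 3 reads (0.369 to 0.966 by library), with no read in some library. Its fold against them therefore rests on a reference near the floor.

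Of 7 negative regulators, 1 was higher in homeostatic Bmi1-CPC and none lower, and after AMI 2 were higher and 1 lower. The shares called, 14.3% and 42.9%, were below and near the 34.4 and 43.4% of all genes. Ptpn6, the phosphatase SHP-1 of blood cells, averaged 7.53 ± 3.50 after AMI, 2.32 ± 1.11 in homeostatic Bmi1-CPC and 0.269 ± 0.281 in the Sca-1-YFP- cells (log2 fold change 1.35, limma adjusted p = 0.00367; log2 fold change 1.35, limma adjusted p = 0.00376). Ptpn2, which removes phosphate from Jak1, rose after AMI (28.9 ± 3.65 against 13.5 ± 1.44 in homeostatic Bmi1-CPC; log2 fold change 1.05, limma adjusted p = 8.91e-05), and Ptpn1 fell (19.8 ± 3.06 against 28.5 ± 5.83; log2 fold change -0.49, limma adjusted p = 0.0259). Pias3 and Socs3, both lower on average in homeostatic Bmi1-CPC (14.5 ± 2.74 and 161 ± 75.1) than in the Sca-1-YFP- cells (20.8 ± 4.29 and 233 ± 51.2), did not pass (limma adjusted p = 0.0575 and 0.0889). The mean of Ptpn6 in the Sca-1-YFP- cells lay under the value of 3 reads (0.369 to 0.966 by library), with no read in some library. Its fold against them therefore rests on a reference near the floor.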

How the data were processed

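RNA for 12 libraries was sequenced as single reads after amplification of cDNA with a kit that does not mark strand. The submitters' processing notes name cutadapt, RSEM, edgeR and build NCBIM37; the deposited signal values are normalized expression values per gene, which the authors gave for 12528 genes beside their own fold changes and adjusted p-values, which were not used. Columns of per-sample values left out numbered 0. Adding 0.5 to the read count of a gene and scaling it by 1 factor for its library gave each deposited value (100.0% of values whole within 1e-06 reads), so reads and depth could be recovered.

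Values were tested as log2(value + 1) with limma 3.58.1 (trend, two-sided) in R 4.3.3, for genes above 1 in at least 4 of 8 libraries, with Benjamini-Hochberg adjustment over all genes tested and a threshold of 0.05. Fold changes are on the log2(value + 1) scale, which understates those of low genes. Within a group, pools of different mice are the replicates, and p-values measure the spread between these pools. The main fit took all libraries as unpaired, although same-numbered homeostatic libraries were taken to share a pool. Of the fits, only the one with a replicate block uses that pairing. The fit was also run on simulated reads with planted changes, and the outcome is not given here. Alternatives were edgeR 4.0.16 (TMM and library totals) and DESeq2 1.42.0 on recovered reads, pseudocounts of 0.5 and 5, filters, 1 fit of all 12 libraries, leaving out each library, a replicate block and, chosen after seeing the data, leaving out pool 2 of both populations.

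The study calls its samples matched without saying how. Deviations from the group means of same-numbered homeostatic libraries correlated over 12450 genes at 0.26, 0.25, 0.16 and 0.30, each over 0.1, so the numbers were taken to pair them, and same-numbered libraries are called pools. Those of AMI and homeostatic libraries did not reach this (0.08, -0.01, -0.01 and 0.00). Members and lists were chosen with earlier results of these data known. Values in every library are given for 10 fixed genes (6 receptor and kinase genes, Stat2, Irf9, Irf7 and Isg15) and for up to 6 called genes per comparison and direction with the largest fold and a mean of at least 5; up to 3 further genes per list are given by smallest adjusted p as mean ± SD, and the other genes named were chosen after their values were seen. Counts and medians cover all 70 genes, of which 1 is not reported here by itself. Ifitm genes match the symbol pattern of Ifit genes and were put in a list of their own after values were seen. Copies were sought among GENCODE vM21 transcripts with blastn 2.17.0 (95% identity over 200 bases); 69 of 70 identifiers matched.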

Additional observations from a re-analysis of the deposited data

Results flagged for a closer look

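Among 168 groups of 4 libraries examined (56 named genes in 3 groups), 9 held a library far from the other 3. That share is near the 1 in 20 or so that chance gives. The genes share libraries, so the groups are not independent. In homeostatic Bmi1-CPC these were Ifit1 in library 2 (327.4), Ifih1 in library 3 (139.3), Ifnar1 in library 4 (83.5) and Stat5a in library 2 (14.61), each the highest. In Sca-1-YFP- cells they were Ifit1 (324.6), Irf9 (81.24), Isg15 (20.84) and Oasl1 (9.249), all 4 the highest and all in library 2. After AMI, Ifnar2 was lowest in library 2 (71.89). Of the 9, 6 were library 2 of a homeostatic population.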

How the results depend on the processing

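The numbers of the 70 genes called higher and lower stayed within 1.5 times of 30 and 3 between the homeostatic populations and of 6 and 23 after AMI under the alternatives run, except that with library totals 7 genes were lower in homeostatic Bmi1-CPC. Leaving out single libraries gave 25 to 35 higher and 3 to 4 lower between populations, and 5 to 8 higher and 18 to 34 lower after AMI. With library totals the split was 21 to 7 (all genes 1328 to 3386, against 2090 to 2196) and after AMI 6 to 18 (all genes 2775 to 1792, against 2671 to 2750); the cause was not tested. With the replicate block, paired by pool, 41 genes were higher and 3 lower between the homeostatic populations. After AMI, where libraries share only a number, the block gave 7 and 23, and in it Ifi44 (0.47) and Rsad2 (-0.41) passed and Stat6 (-0.25) did not.

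Among the 56 genes named by rule, signs turned only in genes called on neither side, given here as log2 fold changes between populations unless AMI is named. With library totals these were Ifi27l1 (-0.26), Ifnar1 (-0.12), Ifnar2 (-0.10), Irf3 (-0.12), Isg20l2 (-0.14), Stat5b (-0.13) and Tyk2 (-0.00328), and after AMI Ddx58 (0.091), Dhx58 (0.0191) and Ifi205 (0.00287). With edgeR's TMM they were Ifi27l1 (-0.00348), Mx1 (0.10) and, after AMI, Ddx58 (0.00273), with DESeq2 Mx1 (0.11) and, after AMI, Ddx58 (0.000431), with a pseudocount of 5 Mx1 (0.00635), and without pool 2 of both populations Ifitm1 (0.0504). Leaving out single libraries gave ranges of -0.0707 to 0.0763 (Ifi27l1), -0.33 to 0.14 (Ifitm1), -0.0775 to 0.0246 (Ifitm2), -0.20 to 0.00187 (Ifitm3), -0.23 to 0.00848 (Ifngr2), -0.0449 to 0.20 (Isg20l2) and -0.25 to 0.22 (Mx1), and after AMI of -0.0613 to 0.0412 (Ddx58), -0.18 to 0.0243 (Dhx58), -0.41 to 0.20 (Ifi205), -0.16 to 0.00818 (Ifih1), -0.31 to 0.0731 (Iigp1), -0.37 to 0.19 (Irf1) and -0.17 to 0.12 (Stat5a). Genes under about 5 in value (Irf5, Ifitm1, Ifitm5, Oas1c) rest on few reads, and a small change in them was not detectable at this depth.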
